A study of Mus musculus with 4 samples.

Results

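The genes described are the receptor chains of the interleukin-17 (IL-17) family, Il17ra, Il17rb, Il17rc and Il17rd, and the adaptors Traf3ip2, Traf6, Traf5 and Traf2. They were chosen by gene symbol, and all 8 were found among the 13102 genes of the deposited tables. RNA was sequenced from primary epidermal keratinocytes of neonatal C57BL/6 mice, cultured for 48 h, with 1 library in each of 4 groups. Keratinocytes of Il17rc knockout (KO) mice, of Il17rd KO mice and of wild-type (WT) mice were given IL-17A, an inflammatory cytokine, at 100 ng/mL for 8 h, and further WT keratinocytes were left untreated. These libraries are called Il17rc KO, Il17rd KO, treated WT and untreated WT. By its title the study concerned Il17rd as a further receptor for IL-17A. No untreated library of a knockout was used here, so genotype and its effect on the response cannot be told apart. Which part of each gene was deleted, and whether cells of several mice were pooled, are not stated by the labels.

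IL-17A is known to bind a receptor made of Il17ra, the chain shared by most members of the family, and Il17rc. Both carry a SEFIR domain inside the cell, through which they recruit Act1, the adaptor that Traf3ip2 encodes. Act1 passes the signal to Traf6, which leads to the kinase TAK1 and the transcription factor NF-kB, and in another branch to Traf2 and Traf5, which are linked to longer-lived inflammatory transcripts. Il17rb pairs with Il17ra in the receptor for IL-25, and Il17re pairs with it in the receptor for IL-17C. Il17rd, also called Sef, was first known as an inhibitor of fibroblast growth factor signals.

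Total counts over the deposited genes lay between 19711866 and 19904695 per library. Levels are given as counts and as CPM, counts scaled by the library size after TMM normalization (edgeR's scaling between libraries). A ratio is followed in parentheses by its exact 95% interval, which covers counting error only. Each group has 1 library, so differences could not be set against replicate spread and no test was run. A gene is called higher or lower where the ratio is at least 2-fold and the interval excludes 1, among the 12934 genes that averaged 1 CPM or more. All 8 genes passed that filter, and Il17rb, Traf5 and Il17rd each reached 1 CPM in 3 of 4 libraries. Keratinocyte markers were high throughout, with a summed level of 41989 to 54812 CPM over 8 genes. Melanocyte markers were also present, at 1548 to 2363 CPM over 6 genes. The libraries differed in sex-linked transcripts as well. The Y-linked Ddx3y had 749, 2, 233 and 654 counts in Il17rc KO, Il17rd KO, treated WT and untreated WT. Xist, an X-linked transcript, had 2668, 8513, 4750 and 2420 counts in the same order. Sex therefore cannot be told apart from genotype or treatment.

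The promoter windows of Il17rb and Il17rc are shown because these were the receptor chains whose levels differed most between treated WT and untreated WT. Each runs from 250 bases before the gene's start to 50 after it, 5′ to 3′ on the gene's strand, from RefSeq (GRCm38.p6). The Il17rb window is chr14:30008847-30009146, minus strand, and the Il17rc window is chr6:113471205-113471504, plus strand. Capitals mark the 1 match to the AP-1 motif TGANTCA.
Il17rb: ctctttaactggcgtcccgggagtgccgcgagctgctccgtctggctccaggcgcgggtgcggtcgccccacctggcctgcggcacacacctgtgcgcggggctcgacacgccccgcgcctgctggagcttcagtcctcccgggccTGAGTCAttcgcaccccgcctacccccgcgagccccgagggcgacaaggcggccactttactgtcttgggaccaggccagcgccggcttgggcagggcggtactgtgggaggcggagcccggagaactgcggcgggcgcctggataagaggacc
Il17rc: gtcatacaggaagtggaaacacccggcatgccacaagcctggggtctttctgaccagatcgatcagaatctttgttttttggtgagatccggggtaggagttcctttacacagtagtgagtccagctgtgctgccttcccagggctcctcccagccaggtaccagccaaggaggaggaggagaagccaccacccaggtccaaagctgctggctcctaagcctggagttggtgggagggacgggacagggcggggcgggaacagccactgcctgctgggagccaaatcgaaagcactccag
Both strands were searched for that motif, for an NF-kB motif, GGGANTTCC, and for a C/EBP motif, TTGCNNAA. These letters occur in 7.81%, 1.68% and 10.8% of 32851 windows of the same length. The match in Il17rb begins 104 bases before the start and overlaps no other motif. No match to the 3 motifs was found in the windows of Il17rc, Il17rd, Traf6, Traf5 and Traf2, which says only that these letters are not there. The Il17rb window holds 32 CG dinucleotides and 72.0% G and C, against 7 and 58.7% in that of Il17rc. It also runs past the start of Chdh, a neighbouring gene on the plus strand that begins at 30009023, so part of it lies within Chdh.

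**Figure D1:**
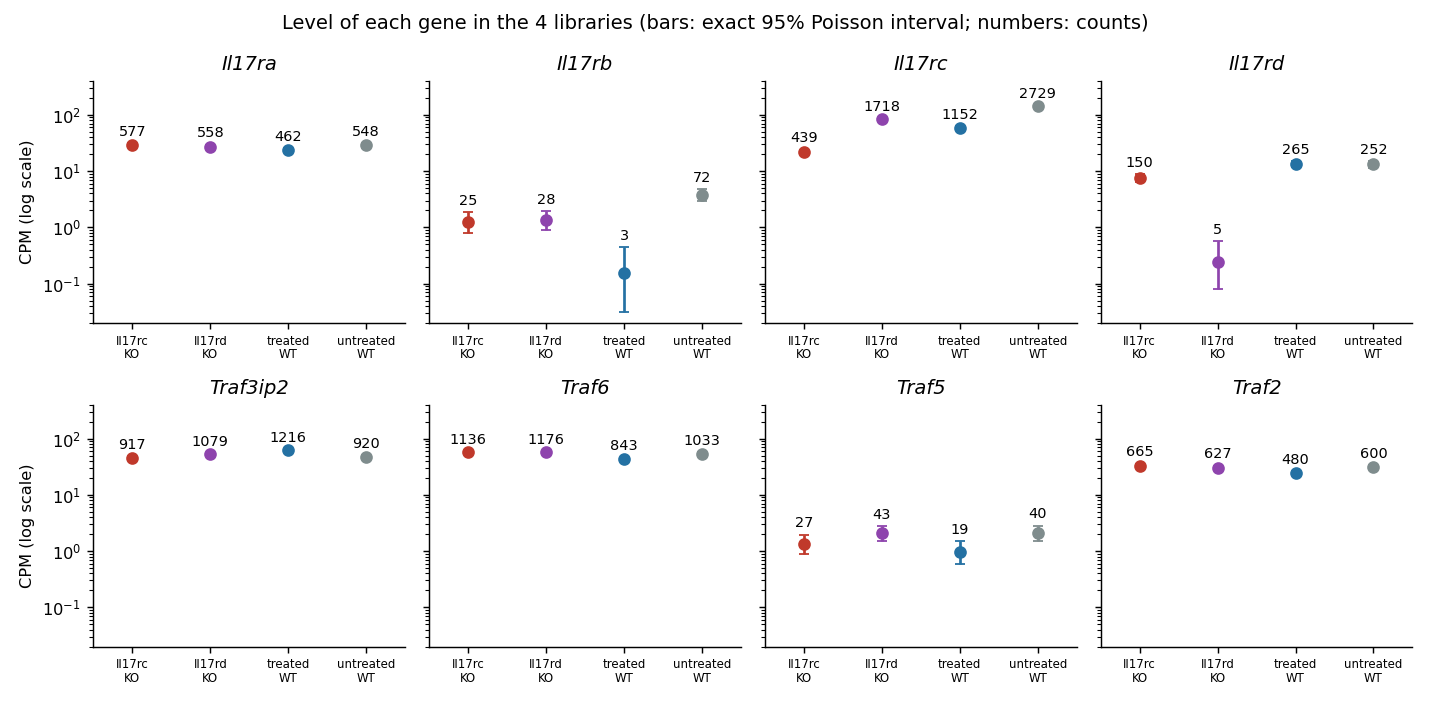
Level of each receptor chain and adaptor in CPM on a log axis, 1 point per library, with the exact 95% Poisson interval and the count above each point. Il17ra, Traf3ip2, Traf6 and Traf2 sit nearly level across the libraries, while Il17rb has its lowest point in treated WT at 3 counts and Il17rd in Il17rd KO at 5 counts.

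The targeted genes were examined first. On chromosome 14 (27038941 to 27107286, plus strand, GRCm38), Il17rd had 5 counts in Il17rd KO and 265 in treated WT, a 55.6-fold lower level (23.5 to 173). It had 150 counts in Il17rc KO and 252 in untreated WT. The treated WT and untreated WT libraries did not differ in Il17rd beyond counting error, with a ratio of 1.03 (0.864 to 1.23). In Il17rc KO the gene stood 1.81-fold lower (1.48 to 2.23) than in treated WT and 1.76-fold lower (1.43 to 2.17) than in untreated WT. Both intervals exclude 1, but neither ratio reaches the size that is called. Il17rd shares near-identical stretches with 153 genes, of which 91 are in the deposited tables. The part of their reads in its counts was not tested.

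Il17rc (chromosome 6, 113471427 to 113483140, plus strand) was far less reduced in its own knockout. It had 439 counts, or 21.9 CPM, in Il17rc KO, 1718 counts, or 83.7 CPM, in Il17rd KO, 1152 counts, or 58.9 CPM, in treated WT and 2729 counts, or 142 CPM, in untreated WT. The 95% Poisson intervals of the 4 levels do not overlap. Il17rc was 2.69-fold lower (2.41 to 3.01) in Il17rc KO than in treated WT, 3.82-fold lower (3.44 to 4.25) than in Il17rd KO and 6.5-fold lower (5.88 to 7.21) than in untreated WT. By deposited FPKM, a level per length of transcript, the gene still ranked 5785 of 13102 in the library labelled Il17rc KO, so transcript of it was counted there. A count over a whole gene does not show whether that transcript is intact.

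Il17rc also differed between libraries in which it was not targeted. It was 2.42-fold lower (2.26 to 2.59) in treated WT than in untreated WT. In Il17rd KO it was 1.70-fold lower (1.60 to 1.81) than in untreated WT and 1.42-fold higher (1.32 to 1.53) than in treated WT. Of these ratios, that between the WT libraries is called.

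Il17ra (chromosome 6, 120463247 to 120487559, plus strand), the shared chain, had 577 counts in Il17rc KO, 558 in Il17rd KO, 462 in treated WT and 548 in untreated WT. It was lowest in treated WT, where it was 1.21-fold lower (1.07 to 1.37) than in untreated WT. Its highest level over its lowest was 1.22-fold, and it was called in none of the 6 comparisons. Neither knockout differed from untreated WT in Il17ra beyond counting error, with ratios of 1.01 (0.894 to 1.13) for Il17rc KO and 0.95 (0.843 to 1.07) for Il17rd KO.

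Il17rb (chromosome 14, 29996135 to 30008896, minus strand), the IL-25 receptor chain, was the receptor chain with the largest ratio between the WT libraries. It had 25 counts in Il17rc KO, 28 in Il17rd KO, 3 in treated WT and 72 in untreated WT. It was 24.5-fold lower (8.06 to 122) in treated WT than in untreated WT. It was 8.13-fold higher (2.48 to 42.1) in Il17rc KO and 8.89-fold higher (2.75 to 45.7) in Il17rd KO than in treated WT, and both ratios rest on the same 3 counts. The knockouts did not differ from each other beyond counting error, at a ratio of 0.915 (0.511 to 1.63) of Il17rc KO over Il17rd KO. Il17rc KO stood 3.01-fold (1.89 to 4.96) and Il17rd KO 2.76-fold (1.76 to 4.43) below untreated WT. An exon of Il17rb overlaps Actr8 on the opposite strand over 141 bases, and the labels do not state whether counting used strand. Actr8 itself had 535 to 587 counts in the 4 libraries.

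Markers of differentiating keratinocytes, like Il17rb, were lowest in treated WT, in 8 of 8 cases, and 7 of the 8 were highest in untreated WT. Summed over the 8 genes, the level was 1382 CPM in Il17rc KO, 1797 in Il17rd KO, 199 in treated WT and 4552 in untreated WT, and the keratin gene Krt1 made up the largest part of it in 3 libraries. Between the knockouts 0 of the 8 markers were called, against 4.24% of all genes. In direction the 8 markers went different ways, with 5 of 8 higher in Il17rc KO than in Il17rd KO. Il17rb did not differ there beyond counting error. Of these 8 markers 7 were called lower in treated WT than in untreated WT, and 7 were called higher in each knockout than in treated WT. Of 6 measured fibroblast markers out of 8, 5 were called lower in treated WT than in untreated WT and 4 were called higher in each knockout than in treated WT. Among all genes 10.7% were called lower in treated WT than in untreated WT. Relative to treated WT, 6.22% were called higher in Il17rc KO and 6.27% in Il17rd KO. Of the 6 fibroblast markers, 5 were lowest in treated WT and highest in untreated WT, as Il17rb was. Summed over the 6, the level was 149, 183, 186 and 226 CPM in Il17rc KO, Il17rd KO, treated WT and untreated WT, most of it from Vim, an intermediate filament gene that many cell types express, at 126, 150, 181 and 180 CPM. The collagen gene Col1a2 had 75, 134, 9 and 171 counts in the same order of libraries. Dcn and Lum, the other fibroblast markers of the list, were looked up but are not among the deposited genes, so their levels are not known. Of 8 general keratinocyte markers, 5 were lowest in treated WT and highest in untreated WT, and Itgb4 went the other way. Melanocyte markers were lowest in treated WT in 6 of 6 cases, with 3 highest in untreated WT and 3 in Il17rc KO. In each of these lists 1 marker was called lower in treated WT than in untreated WT. The 2 measured endothelial markers were highest in treated WT. The part of any of these cells in the level of Il17rb was not tested. In such bulk RNA, fewer cells of a type and less RNA per cell cannot be told apart.

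Immune cell markers were also measured. Lyz2, a lysozyme gene of myeloid cells, had 67 counts in Il17rc KO, 348 in Il17rd KO, 396 in treated WT and 796 in untreated WT, and it has a near-identical copy, Lyz1. The 4 measured immune markers of 8 summed to 31.8, 53.0, 41.4 and 81.3 CPM in the same order of libraries, and the members of that sum went different ways. Lyz2, Csf1r and Laptm5 were lowest in Il17rc KO and highest in untreated WT, as Il17rc was, while Cd68 was lowest in treated WT and highest in Il17rd KO. Cd68 had 27.3, 32.3, 17.4 and 29.8 CPM. Ptprc, Itgam, Cd3e and Cd74 were looked up but are not among the deposited genes. Each deposited gene exceeds 1 CPM in at least 2 libraries, and the levels of these absent markers are not known. Of these 4 markers 3 were called lower in Il17rc KO than in treated WT, and 0 in Il17rd KO, against 4.84% and 3.73% of all genes. The part of immune cells in the level of Il17rc was not tested.

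**Figure D2:**
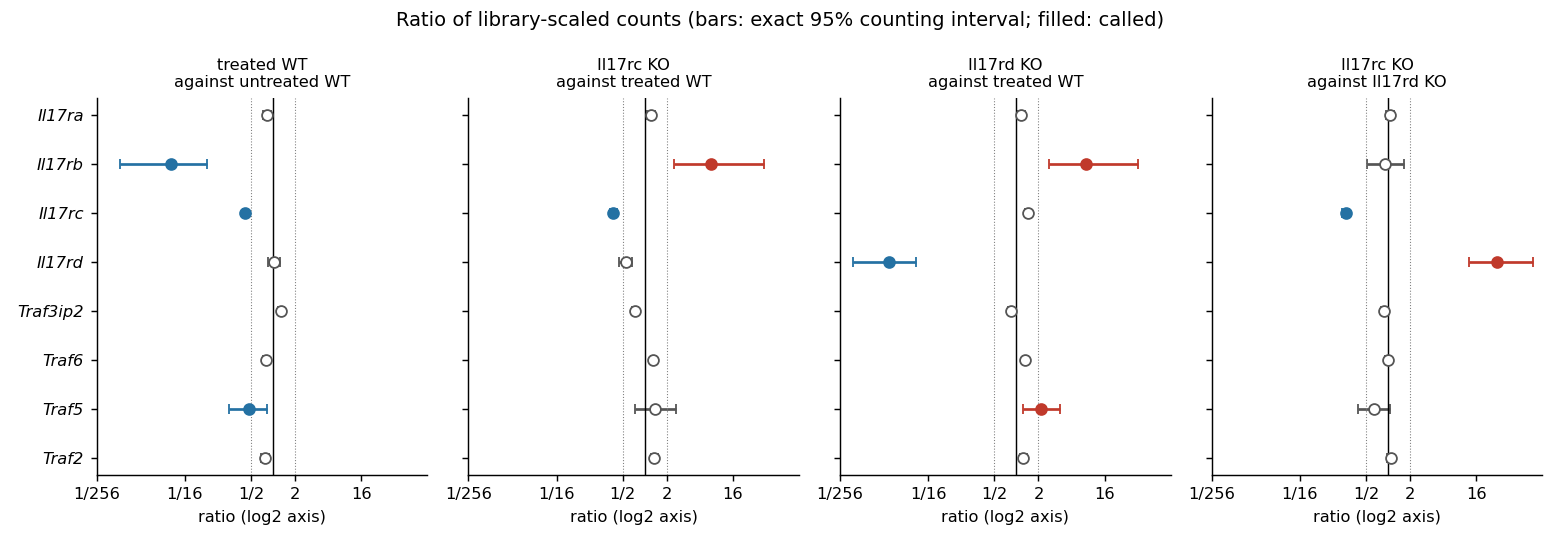
Ratio of library-scaled counts for each gene in 4 comparisons, on a log2 axis, with the exact 95% counting interval, where filled points are called and dotted lines mark 2-fold. Il17rb lies far below 1 in treated WT against untreated WT and above 1 in both knockouts against treated WT.

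The adaptor Traf3ip2 (chromosome 10, 39612934 to 39655307, plus strand) was highest in the library where the other adaptors were lowest. It had 917 counts in Il17rc KO, 1079 in Il17rd KO, 1216 in treated WT and 920 in untreated WT. It was 1.30-fold higher (1.19 to 1.41) in treated WT than in untreated WT, and 1.36-fold lower (1.25 to 1.48) in Il17rc KO and 1.18-fold lower (1.09 to 1.29) in Il17rd KO than in treated WT. None of these ratios is called. Traf3ip2 overlaps an antisense gene, E130307A14Rik, over 293 exonic bases, so reads of the pair may not have been told apart.

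Traf6 (chromosome 2, 101678429 to 101701669, plus strand), the ubiquitin ligase that acts after Act1, had 1136 counts in Il17rc KO, 1176 in Il17rd KO, 843 in treated WT and 1033 in untreated WT. It was lowest in treated WT, where it was 1.25-fold lower (1.14 to 1.37) than in untreated WT. Traf2 (chromosome 2, 25517982 to 25546940, minus strand), its partner in the other branch, had 665, 627, 480 and 600 counts in that order and was likewise lowest in treated WT, by 1.28-fold (1.13 to 1.44) against untreated WT. Both genes were higher in each knockout than in treated WT by ratios of 1.25 to 1.35, and neither was called in any of the 6 comparisons. Traf2 shares near-identical stretches with 70 genes, of which 39 are in the deposited tables, so its values are uncertain.

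Traf5 (chromosome 1, 191997205 to 192092559, minus strand), which acts with Traf2 in the branch that stabilises transcripts, was read at low depth. It had 27 counts in Il17rc KO, 43 in Il17rd KO, 19 in treated WT and 40 in untreated WT. It was 2.15-fold lower (1.22 to 3.93) in treated WT than in untreated WT and 2.16-fold higher (1.23 to 3.92) in Il17rd KO than in treated WT. Both ratios lie just inside the size that is called, and their intervals reach well below 2-fold. In Il17rc KO a difference from treated WT was not detectable at this depth, with a ratio of 1.39 (0.743 to 2.64). The knockouts could not be told apart either, at 0.643 (0.382 to 1.07) for Il17rc KO over Il17rd KO. Exons of Traf5 overlap an antisense gene, Gm26879, over 205 bases and a microRNA gene, Mir3473c, over 65 bases. Neither is in the deposited tables, and their reads may not have been told apart from those of Traf5.

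Counted over the 8 genes, 0 were called higher and 3 lower in treated WT than in untreated WT, namely Il17rb, Il17rc and Traf5. Among all genes tested 8.97% were called higher and 10.7% lower. The median log2 ratio was -0.34 over the 8 genes and 0.00 over all genes. In Il17rc KO against treated WT, 1 gene was called higher, Il17rb, against 6.22% of all genes, and 1 lower, Il17rc itself, against 4.84%. In Il17rd KO against treated WT, 2 were called higher, Il17rb and Traf5, against 6.27% of all genes, and 1 lower, Il17rd itself, against 3.73%. The medians over the 8 genes were 0.34 and 0.36 in these comparisons, against 0.04 and 0.01 over all genes. The comparisons share the treated WT library. Since 8 genes are few and were chosen with results known, the shares are a description.

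Between the knockouts, 1 gene was called higher in Il17rc KO, Il17rd, against 1.49% of all genes, and 1 lower, Il17rc, against 2.75%. These are the targeted genes, and the other 6 were not called. Against untreated WT, 2 genes were called lower in Il17rc KO, Il17rb and Il17rc, against 7.0% of all genes. In Il17rd KO, Il17rb and Il17rd were called lower than in untreated WT, against 3.35% of all genes. None was called higher in either knockout than in untreated WT, against 7.27% of all genes for Il17rc KO and 5.36% for Il17rd KO.

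Levels of different genes were compared per length, by the deposited FPKM. In untreated WT Il17rc was the most abundant of the 5 listed receptor chains at 53.2 FPKM, followed by Il17re at 10.9, Il17ra at 3.29, Il17rd at 1.19 and Il17rb at 1.01. Of their summed FPKM Il17rc made up 38.0% in Il17rc KO, 71.9% in Il17rd KO, 63.4% in treated WT and 76.4% in untreated WT. Il17rc stood 2.47 times as high as Il17ra in Il17rc KO, 9.99 times in Il17rd KO, 8.09 times in treated WT and 16.2 times in untreated WT. In Il17rc KO, Il17re, at 9.0 FPKM, was above Il17rc, at 8.18 FPKM.

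Il17re, the neighbour of Il17rc on chromosome 6 and no target in this study, differed little. It had 1061 counts in Il17rc KO, 1052 in Il17rd KO, 1004 in treated WT and 1229 in untreated WT. It was 1.25-fold lower (1.15 to 1.36) in treated WT than in untreated WT. Its ratio to treated WT was 1.03 (0.945 to 1.13) in Il17rc KO and 0.998 (0.915 to 1.09) in Il17rd KO.

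**Figure D3:**
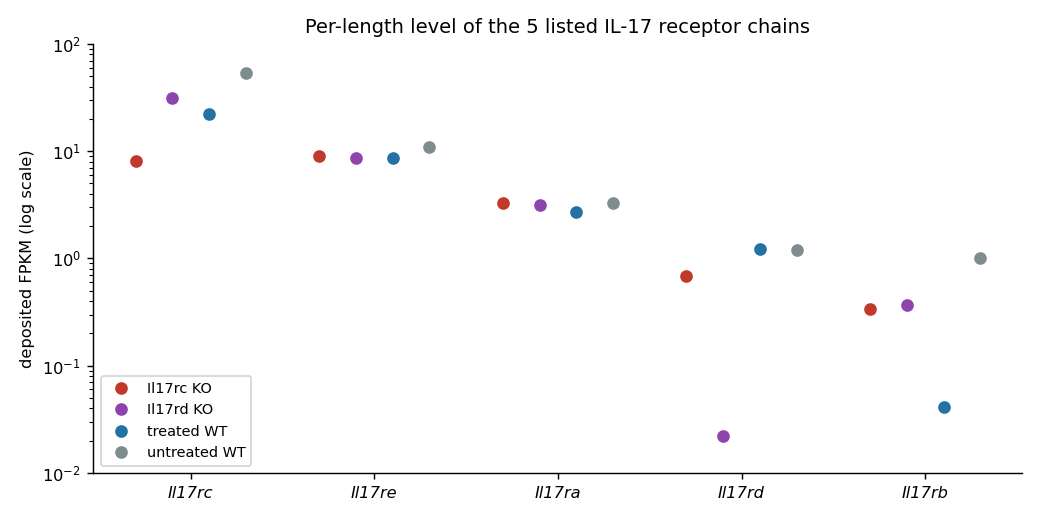
Deposited FPKM of the 5 listed IL-17 receptor chains on a log axis, 1 point per library and no error bar, since each group has 1 library. Il17rc is at 8.18 FPKM in Il17rc KO and at 53.2 FPKM in untreated WT, while Il17re and Il17ra keep nearly the same level in the 4 libraries.

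Among the adaptors, Traf3ip2 was the most abundant per length in every library, at 12.4 FPKM in Il17rc KO, 14.2 in Il17rd KO, 16.8 in treated WT and 13.0 in untreated WT. Traf6 and Traf2 were close to each other, with Traf6 1.11 to 1.21 times as high as Traf2 in the 4 libraries. Traf5 was scarce, and Traf6 stood 15.0 to 25.7 times above it. Traf3ip2 was 1.73, 1.96, 3.08 and 1.90 times as high as Traf6 in Il17rc KO, Il17rd KO, treated WT and untreated WT, which sets treated WT apart from the rest.

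Genes whose pattern over the 4 libraries was most like that of each member were sought among the 9998 genes that averaged 5 CPM or more, by the distance between centred log2 CPM values. Among the nearest to Il17rb were Srcin1 and Sema3d, at distances of 0.16 and 0.26. Srcin1, a scaffold of the kinase Src, had 106 counts in Il17rc KO, 118 in Il17rd KO, 16 in treated WT and 311 in untreated WT. Nearest to Il17rc were Angptl4, Parm1 and Prl2c2, at 0.27, 0.50 and 0.52, and Prl2c2 has near-identical copies. Angptl4, an inhibitor of lipoprotein lipase, had 132, 599, 435 and 1042 counts in the order of libraries just given. Nearest to Traf5 were Bcl3, Slc15a1 and Fabp5, at 0.08, 0.09 and 0.10, and Bcl3, an NF-kB cofactor, had 357, 565, 242 and 513 counts. Within 0.5 of Traf5 lay 519 of the 9998 genes, against 6 for Il17rb and 2 for Il17rc. Traf5 itself had 19 to 43 counts, so the order of its neighbours is uncertain and no short set stands near it.

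The flat genes had many neighbours. From 4235 to 5219 of the 9998 genes lay within 0.5 of Il17ra, Traf3ip2, Traf6 or Traf2, so no short set stands near them. The nearest were Faf1 to Il17ra, Foxp1 to Traf3ip2, Hsf2 to Traf6 and Kif13a to Traf2, at 0.02 or 0.03. Il17rd had no close neighbour, with Actg1 at 1.5, Uty at 2.36 and Ddx3y at 2.46. Actg1 has near-identical copies, and its counts of 79635 in Il17rc KO, 10090 in Il17rd KO, 106257 in treated WT and 104581 in untreated WT are uncertain. With 4 libraries such distances are a description.

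The other genes of the pathway were read from 7 lists. They hold 83 genes besides the members, of which 74 were measured, each counted once. In treated WT against untreated WT 9 were called higher and 6 lower, or 20.3% in all, against 19.7% of all genes. In Il17rc KO against treated WT 3 were higher and 4 lower, or 9.46% against 11.1%, and in Il17rd KO against treated WT also 3 and 4, or 9.46% against 10.0%. Between the knockouts 3 were higher and 1 lower in Il17rc KO, or 5.41% against 4.24%. Against untreated WT, 12.2% were called in Il17rc KO, where the background was 14.3%, and 5.41% in Il17rd KO, where it was 8.71%. These shares are near the background.

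Of the ligands and further chains, Il17d and Il17re were measured and neither was called. Il17d, a ligand, had 27 counts in Il17rc KO, 29 in Il17rd KO, 45 in treated WT and 26 in untreated WT. Of 17 genes of the TAK1 and IKK relay, 0 were called in treated WT against untreated WT and 0 in Il17rd KO against treated WT. Among all genes 19.7% and 10.0% were called in these comparisons, and 11.1% in Il17rc KO against treated WT. Ikbke, an IKK-related kinase, was the 1 called lower in Il17rc KO, by 2.43-fold (2.24 to 2.63), with 859 counts against 2035 in treated WT. It was 1.91-fold lower (1.78 to 2.06) in Il17rd KO than in treated WT, and 1.99-fold higher (1.85 to 2.15) in treated WT than in untreated WT, both just short of the size called.

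Of 5 measured genes of the list of other TRAF genes, Tifa, which helps Traf6 to oligomerise, was called lower in treated WT than in untreated WT and higher in both knockouts than in treated WT. It had 73 counts in Il17rc KO, 115 in Il17rd KO, 31 in treated WT and 142 in untreated WT. Traip, a TRAF-interacting ubiquitin ligase, was called higher in treated WT and in both knockouts than in untreated WT. It was also called higher in Il17rc KO than in Il17rd KO, by 2.03-fold (1.73 to 2.39). It had 454 counts in Il17rc KO, 229 in Il17rd KO, 238 in treated WT and 64 in untreated WT. Traf3, Traf4 and Traf7 were not called. For this list and those below, 19.7% of all genes were called in treated WT against untreated WT. Against treated WT the shares were 11.1% in Il17rc KO and 10.0% in Il17rd KO. Of 14 genes of the MAP kinase arm, Map3k5, a stress kinase, was called, 2.58-fold higher (2.13 to 3.15) in treated WT than in untreated WT and 2.33-fold lower (1.93 to 2.81) in Il17rc KO than in treated WT. In Il17rd KO it was 1.99-fold lower (1.67 to 2.37) than in treated WT, just short of the size called, and the knockouts did not differ beyond counting error, at 0.854 (0.691 to 1.06) for Il17rc KO over Il17rd KO. Of 11 negative regulators of the receptor complex, 1 was called in these comparisons, the chaperone gene Hsp90aa1, higher in treated WT than in untreated WT at a log2 ratio of 1.51. It has near-identical copies, and its value is uncertain.

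In the arm that acts on transcript stability the knockouts differed in Zc3h12a. Of its 10 genes, Zc3h12a and Zc3h12c were called higher and Zfp36 and Zfp36l1 lower in treated WT than in untreated WT. Among all genes 8.97% were called higher and 10.7% lower there. Zfp36 shares near-identical stretches with 35 other genes, of which 20 are in the deposited tables. Zc3h12c and Zfp36l1 share such a stretch with 1 gene each, which is not in those tables. The values of these genes are uncertain. Zc3h12a, a ribonuclease that degrades inflammatory transcripts, had 646 counts in Il17rc KO, 3274 in Il17rd KO, 3322 in treated WT and 1095 in untreated WT. It was 4.95-fold lower (4.55 to 5.39) in Il17rc KO than in Il17rd KO, the 1 gene of the list that was called between the knockouts. Among all genes 4.24% were called there. In Il17rd KO Zc3h12a was close to treated WT, with a ratio of 0.939 (0.895 to 0.986).

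Because Il17rd is known from fibroblast growth factor signals, the receptor kinases and the ERK relay were read as well. Of 17 measured genes, 4 were called higher and 3 lower in treated WT relative to untreated WT, against 8.97% and 10.7% of all genes. The lower genes were the receptors Fgfr1, Fgfr2 and Fgfr3, and the higher ones the ERK inhibitors Spry2, Spry4, Spred1 and Spred2. Fgfr3 had 671 counts in Il17rc KO, 796 in Il17rd KO, 81 in treated WT and 1649 in untreated WT, which is the order of Il17rb. Fgfr2 and Fgfr3 were called higher in both knockouts than in treated WT.

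Spry4 had 62 counts in Il17rc KO, 30 in Il17rd KO, 159 in treated WT and 39 in untreated WT. It was called lower in both knockouts than in treated WT, by 2.63-fold (1.95 to 3.58) in Il17rc KO and by 5.56-fold (3.75 to 8.52) in Il17rd KO. Spry1, Spry2 and Spred1 were called lower in Il17rd KO than in treated WT and were not called in Il17rc KO. Spry2 stood at 10.5 CPM in Il17rc KO, 7.45 in Il17rd KO and 19.4 in treated WT. Spred1 stood at 67.6, 52.05 and 130.9 CPM in that order. In Il17rc KO both genes were thus also lower than in treated WT, just short of the size called. Spry1 had 8.53, 4.24 and 9.96 CPM. Between the knockouts, Spry1 and Spry4 were called higher in Il17rc KO, and Spry2 and Spred1 were not called. The kinase genes Map2k1 and Map2k2 were not called in any comparison, and Mapk3 was called in 1, lower in Il17rc KO than in untreated WT.

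**Figure D4:**
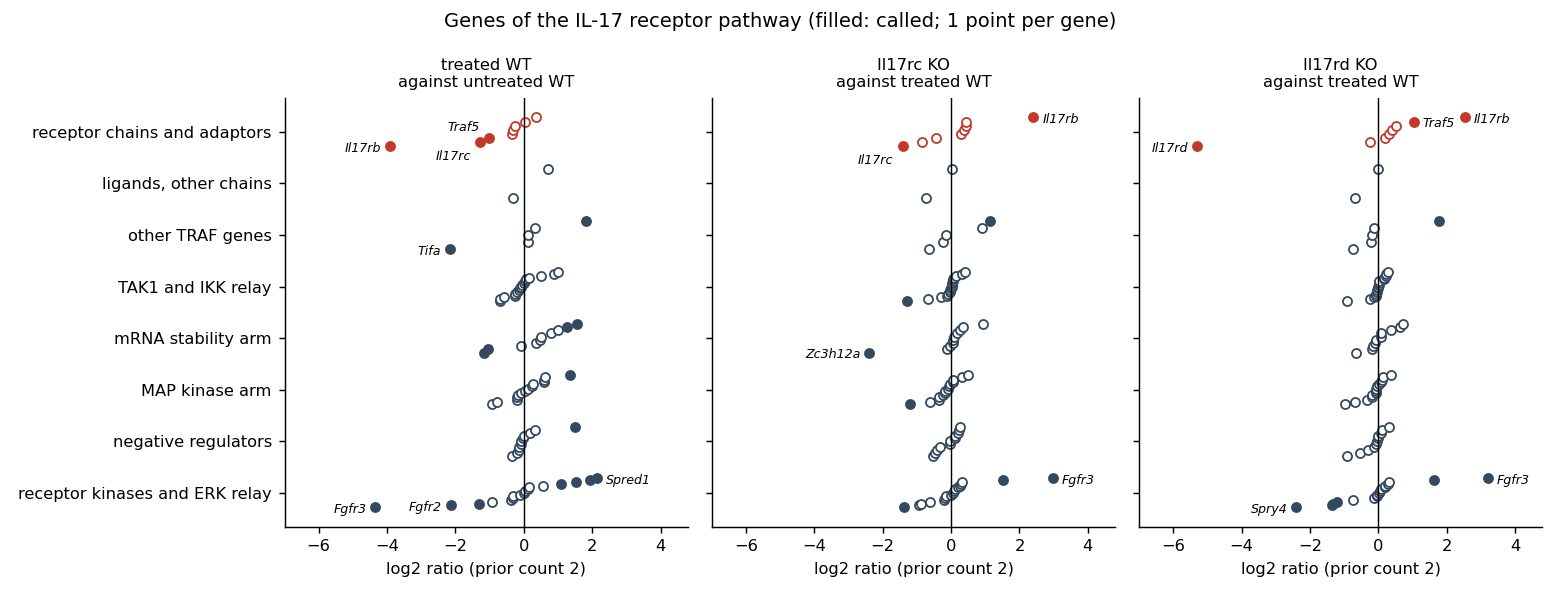
Log2 ratio of each measured gene of the receptor chains and adaptors and of 7 pathway lists in 3 comparisons, 1 point per gene, filled where called, with genes that stand in 2 lists shown in both. Most points lie near 0, and Il17rb and Fgfr3 stand out to the left in treated WT against untreated WT and to the right in both knockouts against treated WT.

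Transcripts known to respond to IL-17A were read as an output of the pathway. Of 16 listed, 11 were measured. Treated WT had 6 of the 11 called higher and 1 lower, Il1f9, relative to untreated WT, against 8.97% and 10.7% of all genes. The median log2 ratio was 1.76, against 0.00 over all genes. In Il17rc KO 0 were called higher and 7 lower than in treated WT, against 6.22% and 4.84% of all genes. The median was -1.42, against 0.04. In Il17rd KO 4 were called higher than in treated WT, namely Lcn2, S100a8, S100a9 and Il1f9, and 3 lower, against 6.27% and 3.73%. The median was 0.56, against 0.01. Against untreated WT, 3 were called higher in Il17rc KO (Cxcl1, S100a8 and S100a9) and 1 lower, against 7.27% and 7.0% of all genes. In Il17rd KO 7 were called higher and 0 lower than in untreated WT, against 5.36% and 3.35%. Nfkbiz, an NF-kB cofactor gene, had 1659 counts in Il17rc KO, 4209 in Il17rd KO, 4338 in treated WT and 1257 in untreated WT. The neutrophil chemokine gene Cxcl1 had 286, 468, 4443 and 92 counts in the same order and was called lower in both knockouts than in treated WT.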

How the data were processed

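The data are gene tables of 4 RNA-seq libraries, 1 per group, holding a count and an FPKM for every gene symbol. The submitters' processing notes name build mm10 and, in no stated order, HISAT2, featureCounts, Subread, edgeR and Trim Galore 0.4.4. Settings, annotation and strand are not stated there. The deposited counts are raw and whole, and each of the 13102 genes exceeds 1 CPM in at least 2 libraries. Levels per length come from the deposited FPKM, whose implied gene lengths are close to merged exon lengths in GENCODE M21 and whose implied library sizes match totals times TMM factors.

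TMM factors (edgeR 4.0.16) over the 4 libraries were 1.01, 1.04, 0.984 and 0.963 for Il17rc KO, Il17rd KO, treated WT and untreated WT. Ratios are of counts over the scaled sizes, with the exact 95% conditional binomial (Clopper-Pearson) interval (scipy 1.17.1). Intervals cover counting error of reads only. No molecular identifiers are mentioned and reads may repeat a molecule, so the intervals may be too narrow. Log2 ratios use a prior count of 2. With 1 library per group there is no test, and a call describes libraries, not conditions. The rule for calls was checked on simulated counts with counting error only, so the check does not cover spread between libraries of a condition.

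Named are the 8 members, pathway genes called in at least 1 of the first 4 comparisons, and genes among the 3 nearest to a member in pattern; some genes are not reported here. Members and lists were chosen with earlier results of these data known; uncalled genes, markers and neighbouring genes were named after their values were seen. Coordinates are from GENCODE M21 (GRCm38). Near-identical copies are transcripts that match at 95% identity over at least 50% of either gene (BLAST+ 2.17.0). Among the members, Il17rd has 6 such short genes, none of which covers that share of it. Near-identical stretches are matches at that identity over any share of a gene. Alternatives were DESeq2 1.42.0 size factors, library totals, other filters, fold sizes, FPKM ratios and prior counts.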

Additional observations from a re-analysis of the deposited data

Results flagged for a closer look

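Il17rc went in opposite directions in the knockouts relative to treated WT. Its log2 ratio was -1.42 in Il17rc KO and 0.51 in Il17rd KO, and both counting intervals exclude a ratio of 1. The first is the targeted gene in its own knockout, and the second does not reach the size that is called. With 1 library per group the difference between the knockouts was not tested. Immune cell markers were also lower in Il17rc KO than in treated WT for 3 of 4 genes, and their part was not tested.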

How the results depend on the processing

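With 1 library per group no library could be left out, and no paired analysis was possible because each group has 1 library. The number of members called kept within 1.5 times of its value under other library scalings, no filter, a prior count of 0.5, and a 2-fold rule on the log2 ratio that was added after seeing the data. No called member changed direction under any alternative, and 17 of 132 counts moved. In treated WT against untreated WT the 3 lower calls became 1 with a filter of 5 CPM, 1 at 3-fold and 1 by FPKM with a pseudocount of 1. In Il17rc KO against treated WT the 1 higher call became 0 with the 5 CPM filter and 0 by that FPKM ratio, and the 1 lower call became 2 at 1.5-fold and 0 at 3-fold. In Il17rd KO against treated WT the 2 higher calls became 0 with the filter, 1 at 3-fold, 1 by FPKM with a pseudocount of 0.1 and 0 with a pseudocount of 1. Between the knockouts the 1 higher call became 0 with a pseudocount of 1. Against untreated WT the 2 lower calls of Il17rc KO became 1 with the filter and 1 with a pseudocount of 1, and those of Il17rd KO became 1 with the filter, 1 at 3-fold and 1 with a pseudocount of 1. The filter removes Il17rb and Traf5 by construction, and a pseudocount of 1 exceeds most of their FPKM values. Among all genes, 43 of 132 counts moved, under a fold size of 1.5 or 3, the 5 CPM filter or a pseudocount of 1. At 1.5-fold, 3-fold and a pseudocount of 1, the 1160 genes higher in treated WT than in untreated WT became 2312, 451 and 609, and the 1384 lower became 2441, 683 and 803. Relative to treated WT, the 804 genes higher in Il17rc KO became 1589, 352 and 401, and the 626 lower 1265, 267 and 317. The 811 higher in Il17rd KO became 1562, 398 and 390, and the 483 lower 1075, 193 and 280. Between the knockouts the 193 higher in Il17rc KO became 682, 71 and 80, and the 356 lower 897, 125 and 123. Against untreated WT the 940 higher in Il17rc KO became 2022, 446 and 569, the 905 lower 2079, 287 and 413, the 693 higher in Il17rd KO 1485, 281 and 319, and the 433 lower 1308, 120 and 203. The filter took the 626 to 381, the 811 to 509, the 193 to 122, the 356 to 155, the 905 to 538, the 693 to 452 and the 433 to 240.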

Other observations

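The genes beside Il17rb, Il17rc and Il17rd were read after the members' values had been seen, as the 3 nearest tested genes on each side. Chdh, which encodes choline dehydrogenase, starts 127 bases from the start of Il17rb on the other strand, so both genes are read away from the same stretch of chromosome 14. Chdh had 1840 counts in Il17rc KO, 1444 in Il17rd KO, 281 in treated WT and 2990 in untreated WT, which is lowest in treated WT and highest in untreated WT, as for Il17rb. It was 10.9-fold lower (9.61 to 12.3) in treated WT than in untreated WT, and 6.39-fold higher (5.63 to 7.27) in Il17rc KO and 4.90-fold higher (4.31 to 5.58) in Il17rd KO than in treated WT. With its deeper counts these ratios rest on less counting error than the 3 counts of Il17rb in treated WT. Actr8, on the other side of Il17rb, had 585, 587, 585 and 535 counts in Il17rc KO, Il17rd KO, treated WT and untreated WT and was not called in any of these comparisons.

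Of the 6 genes around Il17rc, Fancd2, a DNA repair gene, was called in Il17rc KO against treated WT, 2.15-fold higher (1.84 to 2.51), with 537 counts against 244, and it had 353 counts in Il17rd KO and 122 in untreated WT. The other 5 were not called in that comparison. Creld1, which begins directly after Il17rc, had 177 counts in Il17rc KO and 255 in treated WT, 1.48-fold lower (1.21 to 1.80). Of the 6 genes around Il17rd, Arhgef3 was called in Il17rd KO against treated WT, 2.62-fold lower (2.33 to 2.95), and in Il17rc KO against treated WT, 2.95-fold lower (2.60 to 3.34). It had 342 counts in Il17rc KO, 394 in Il17rd KO, 983 in treated WT and 372 in untreated WT, so it was high in treated WT, 2.59-fold (2.30 to 2.92) above untreated WT. Neither knockout differed from untreated WT beyond counting error, with ratios of 0.879 (0.757 to 1.02) for Il17rc KO and 0.989 (0.856 to 1.14) for Il17rd KO.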
